A study of Mus musculus with 8 samples.

Results

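Genes of the EGR and NR4A families and other rapid-response genes were followed in mesenchymal stem/progenitor cells (MSPCs) sorted from mouse bone marrow. The 10 genes were Egr1, Egr2, Egr3, Nr4a1, Nr4a2, Nr4a3, Ier2, Atf3, Dusp1 and Trib1. They were found among the 52636 genes of the count table by matching Ensembl identifiers to symbols. The list was drawn up by function and chosen by the CPM of each library and the difference between CTL and cKO libraries, which were known beforehand. CPM are the counts of a gene for every 1000000 counts of its library. In the values below, the counts of a library are those in genes counted at least once in each library, unless stated otherwise. For these 10 genes the genotype difference is therefore given as a description, and where genes past a threshold are counted, nothing is read from the count of these 10.

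MSPCs of 4 CTL mice (Flk2-cre+ Cxcr4fl/+) and 4 cKO mice (Flk2-cre+ Cxcr4fl/fl) were sequenced, with 1 library per mouse. CTL mice thus carry the Flk2-cre transgene and 1 floxed Cxcr4 allele, and cKO mice carry the same transgene and 2 floxed alleles. All mice were of C57BL/6 background, and the labels give an age of 6 weeks where the methods give an older and wider range for the mice of the study. Flk2-cre acts in multipotent progenitors and their hematopoietic progeny, so that Cxcr4 is deleted in blood-forming cells and not in the MSPCs that were sequenced. The sort kept PDGFRα+ cells with GFP from the Kitl gene and left out cells with CD45, Ter119, CD31 or CD144. The GFP allele leaves 1 intact copy of Kitl in both genotypes. Marrow was digested with warm collagenase and the cells were sorted through the same gate in 2 rounds. Dissociation of a tissue is itself known to induce rapid-response genes, and all 8 libraries went through it, so that the levels are those of dissociated and sorted cells. How much of each level was set in the marrow was not tested.

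Rapid-response genes, also called immediate early genes, are transcribed within minutes of a growth factor, cytokine, calcium or stress signal, because their activators wait bound or ready in the cell and need no new protein. MAP kinases act on Elk factors that sit with SRF at CArG boxes, and cyclic AMP and calcium act on CREB at the cyclic AMP response element (CRE). The EGR genes encode zinc finger transcription factors, and the NR4A genes encode orphan nuclear receptors whose activity is set mainly by how much protein is made. Other members restrain the response: Dusp1 encodes a phosphatase that inactivates MAP kinases, and Atf3 a stress-induced factor of the ATF/CREB family. Their transcripts decay fast, so that a level reflects a short time before lysis.

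RefSeq promoter windows on GRCm38.p6 were used for 6 of the 10 genes, namely Egr2, the 3 NR4A genes, Atf3 and Dusp1. No window was at hand for Egr3, Ier2 and Trib1, and Egr1 was left out of the search, so that nothing is said here of its promoter. The 250 bases before each annotated start were searched on both strands for the CRE half-site (TGACG), the full CRE (TGACGTCA, in which a pair of half-sites overlap), the CArG box, a TATA box (TATAAA), an EGR site (GCGNGGGCG) and the NR4A site (AAAGGTCA). Stretches around the half-sites are shown for Egr2, the NR4A genes and Dusp1, since these are the letters that the genes share and the rule did not use. Capitals mark half-sites, the full CRE and the CArG box, and all are written 5′ to 3′ on the strand of the gene.
Egr2, chr10:67537748-67537828, plus strand: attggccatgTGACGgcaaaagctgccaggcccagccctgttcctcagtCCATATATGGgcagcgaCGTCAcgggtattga
Nr4a1, chr15:101266603-101266820, plus strand: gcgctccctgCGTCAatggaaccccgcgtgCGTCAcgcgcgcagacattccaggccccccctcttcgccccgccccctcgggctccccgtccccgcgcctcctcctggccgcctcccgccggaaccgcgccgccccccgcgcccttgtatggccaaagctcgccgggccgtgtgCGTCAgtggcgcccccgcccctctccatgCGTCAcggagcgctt
Nr4a2, chr2:57124100-57124213, minus strand: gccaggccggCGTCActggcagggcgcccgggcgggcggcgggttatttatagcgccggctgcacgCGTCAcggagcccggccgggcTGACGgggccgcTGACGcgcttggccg
Nr4a3, chr4:48045064-48045152, plus strand: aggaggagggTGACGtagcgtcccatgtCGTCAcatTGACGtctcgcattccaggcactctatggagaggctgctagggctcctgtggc
Dusp1, chr17:26508598-26508673, minus strand: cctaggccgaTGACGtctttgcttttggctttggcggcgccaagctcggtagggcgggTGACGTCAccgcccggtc

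All 6 windows held a CRE half-site, which 17.8% of the 32851 windows of the same length hold. Each of the 3 NR4A windows had 4 half-sites, and 0.137% of all windows hold that many or more. The stretch printed for Nr4a3 ends where an annotated exon begins and shows 3 of its 4 half-sites. Dusp1 had 3 half-sites, which 0.688% of windows reach, and a pair of them form the full CRE found in 1.55% of windows. Egr2 had 2 half-sites, 1 on each side of the CArG box written CCATATATGG, and a CArG box stands in 1.47% of all windows. Of the 5 windows listed for Egr2, 4 hold a CArG box, and the one shown was taken for having the most motif matches. The shares over all windows are per single window and do not allow for this choice. Atf3 had 1 half-site, from 7 to 3 bases before its start. An EGR site stood in the windows of Nr4a1 and Nr4a2, against 4.70% of all windows, and a TATA box in that of Nr4a2, against 12.4%. None of the 6 windows held the NR4A site, which 1.34% of windows hold. A match of letters is a description and does not show that a factor was bound.

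**Figure D1:**
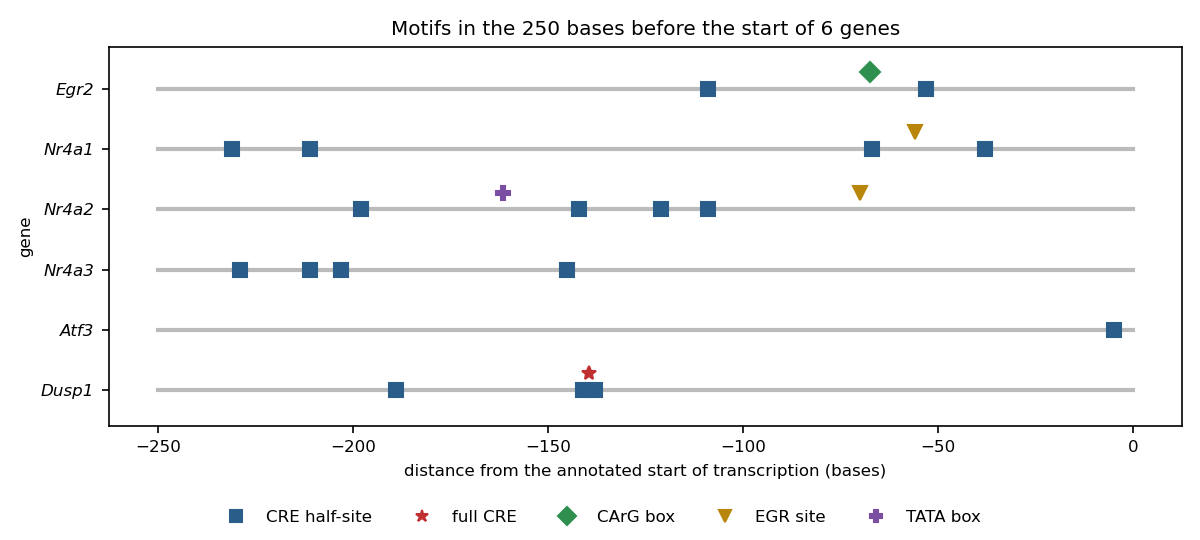
Positions of the motifs in the 250 bases before the annotated start of transcription of 6 rapid-response genes (horizontal axis, distance from the start in bases), with 1 line per gene and 1 symbol per match. The NR4A genes each have 4 CRE half-sites, Dusp1 has 3 with a full CRE, Egr2 has 2 around a CArG box and Atf3 has 1.

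Total counts lay between 31047344 and 38216877 per library, with 31047344 to 37682465 in CTL and 32724428 to 38216877 in cKO, and mitochondrial genes took 0.530 to 0.653% of them. The sort label held in that the 8 MSPC markers (among them Lepr, Cxcl12 and Kitl) summed to 52916 to 65182 CPM in CTL and 54092 to 65842 CPM in cKO. The 21 hematopoietic markers summed to 243 to 446 CPM in CTL and 240 to 345 CPM in cKO, with Cd3e at 0 counts in all libraries. Of the 10 of these markers tested, 9 had a log2 difference of cKO against CTL above 0, with a median of 0.48 and 0 past the threshold. The 10 endothelial markers summed to 5.05 to 14.2 CPM in CTL and 5.50 to 9.96 CPM in cKO, with Tek at 0 in all libraries. The 7 osteoblast and chondrocyte markers summed to 7835 to 11608 CPM in CTL and 8454 to 13896 CPM in cKO, with Acan at 0 in all libraries, and the 5 smooth muscle and pericyte markers to 49.4 to 95.9 and 38.7 to 71.2 CPM. The part that these other cell types played in the values below was not tested. The titles carry a number whose meaning is not given, and it splits the libraries into a set from 26 to 32 (CTL2, CTL4, cKO2, cKO4) and a set from 67 to 86 (CTL1, CTL3, cKO1, cKO3), with 2 libraries of each genotype in each. The genes were not chosen by this split, and differences between the sets were tested, with the limit that the CPM of the same libraries were known when the genes were chosen.

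Compared per length of exon, the rapid-response genes covered a wide range of levels. Dusp1 was the highest with 40.0 ± 6.72 CPM per kb (SD, n = 8 libraries), followed by Egr1 with 36.8 ± 5.39 and Ier2 with 29.3 ± 6.48. Trib1 had 5.71 ± 3.83 and Nr4a1 2.84 ± 2.57 CPM per kb. The 5 others had means between 0.136 CPM per kb for Nr4a3 and 0.595 for Nr4a2, with Atf3, Egr2 and Egr3 in between. The only neighbors in this order whose ranges over the 8 libraries did not overlap were Ier2, with 21.7 CPM per kb or more, and Trib1, with 13.1 or less. Dusp1 exceeded Egr1 in 5 of 8 libraries and Atf3 exceeded Egr2 in 4 of 8, so that those neighbors did not differ beyond their spread. All CPM given above and below were scaled by TMM, which corrects library size for composition. The values that follow are compared only within a gene.

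**Figure D2:**
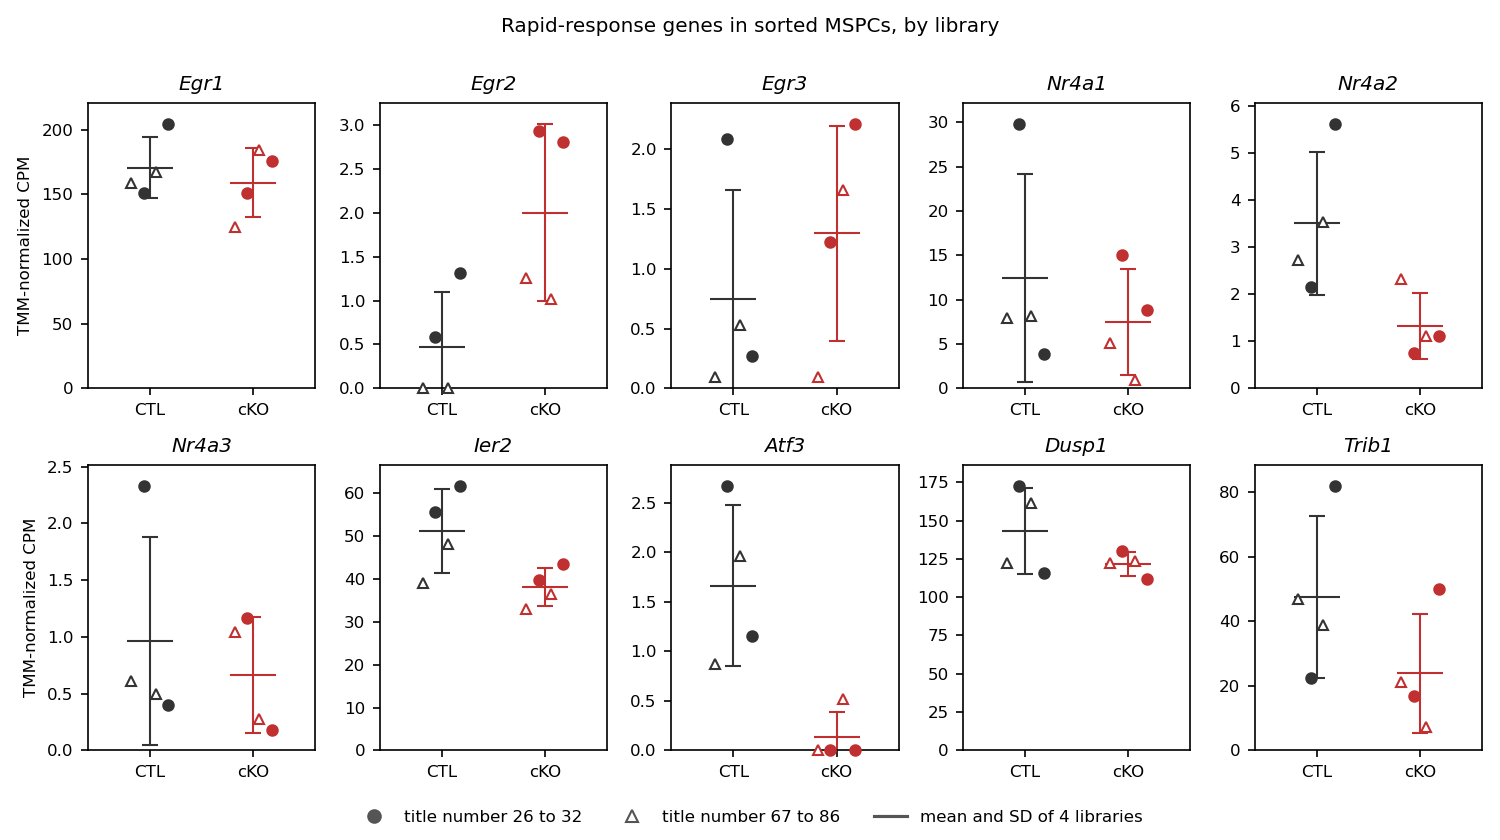
CPM of each rapid-response gene (vertical axes, linear from 0) in 4 CTL and 4 cKO libraries, with filled circles for title numbers 26 to 32, open triangles for 67 to 86, and the mean with SD as a bar, cut off at 0 where it would fall below. Atf3 is the only panel in which the genotypes do not overlap, and single libraries stand high for Nr4a1, Nr4a3 and Trib1.

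Egr1 (ENSMUSG00000038418.7, chromosome 18 of GRCm38 from 34859823 to 34864984) is the best known EGR gene and had 4081 to 7645 counts. Its CPM were 159, 151, 167 and 204.6 in CTL1 to CTL4 and 125, 151, 185 and 176 in cKO1 to cKO4. The genotypes overlapped over most of their range, and the highest value, in CTL4, was 1.64 times the lowest, in cKO1. The means were 171 ± 23.6 CPM in CTL and 159 ± 26.8 CPM in cKO MSPCs (SD, n = 4 per genotype), which is a log2 difference of cKO against CTL of -0.10 (SE 0.14). Since the cells are measured in bulk, fewer cells with a transcript and less transcript per cell cannot be told apart here or below.

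Egr2 (ENSMUSG00000037868.15, chromosome 10 from 67535475 to 67542188), known from myelination, stood near the limit of detection in CTL. It had 0, 19, 0 and 49 counts in CTL1 to CTL4 and 41, 103, 33 and 108 counts in cKO1 to cKO4. A count of 0 allows up to 3 counts, or 0.0969 CPM in CTL1 and 0.0929 CPM in CTL3. These limits were scaled by all counts of the library and are slightly lower than 3 counts on the scale of the other CPM. In CPM the CTL libraries had 0, 0.582, 0 and 1.31 and the cKO libraries 1.26, 2.94, 1.01 and 2.81. Only CTL4 reached into the cKO range, and within each genotype the libraries with title numbers 26 to 32 were the higher ones. The log2 difference was 2.07 (SE 1.28) in a fit without the filter on counts, where its size depends on how counts of 0 are treated.

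Egr3 (ENSMUSG00000033730.4, chromosome 14 from 70077203 to 70082614), known from the making of muscle spindles, varied by 24.1 times between the lowest and highest library. Its counts were 3, 68, 17 and 10 in CTL1 to CTL4 and 3, 43, 54 and 85 in cKO1 to cKO4, or 0.0971 to 2.08 CPM in CTL and 0.0919 to 2.21 CPM in cKO. Replicate 1 had 3 counts in both genotypes, and the ranges of the genotypes were nearly the same. The log2 difference of 0.80 (SE 0.93) rested on single libraries, with 2.11 without CTL2 and 0.42 without cKO4.

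The 3 NR4A genes were each lower in cKO by their means, and in none did the genotypes separate. Nr4a1 (ENSMUSG00000023034.6, chromosome 15 from 101254269 to 101274795), also known as Nur77, had 246, 973, 263 and 144 counts in CTL1 to CTL4 and 168, 527, 31 and 339 in cKO1 to cKO4. In CPM these were 7.96, 29.8, 8.17 and 3.85 in CTL and 5.15, 15.0, 0.953 and 8.82 in cKO. CTL2 stood far above the other CTL libraries, cKO3 far below the other cKO libraries, and the highest value was 31.3 times the lowest. The log2 difference was -0.73 (SE 0.77), and it was 0.16, of the other sign, without CTL2.

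Nr4a2 (ENSMUSG00000026826.13, chromosome 2 from 57106830 to 57124003), also known as Nurr1, had 84, 70, 114 and 210 counts in CTL1 to CTL4 and 76, 26, 36 and 43 in cKO1 to cKO4. The CPM were 2.72, 2.15, 3.54 and 5.62 in CTL and 2.33, 0.741, 1.11 and 1.12 in cKO. The genotypes overlapped by 1 library on each side, since cKO1 lay just above CTL2. With means of 3.51 ± 1.52 CPM in CTL and 1.32 ± 0.692 CPM in cKO MSPCs (SD, n = 4 per genotype), cKO MSPCs had 37.8% of the CTL level, a log2 difference of -1.41 (SE 0.46). It was -1.87 between the genotypes in the set from 26 to 32 and -0.92 in the set from 67 to 86.

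Nr4a3 (ENSMUSG00000028341.9, chromosome 4 from 48045153 to 48086447), also known as Nor1, had the lowest level per length of the 10 genes. It had 19, 76, 16 and 15 counts in CTL1 to CTL4 and 34, 41, 9 and 7 in cKO1 to cKO4. CTL2 was the highest CTL library, as it was for Nr4a1, and the other 3 CTL libraries lay within the cKO range. The log2 difference was -0.52 (SE 0.72), and without CTL2 it was 0.39.

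Ier2 (ENSMUSG00000053560.4, chromosome 8 from 84661331 to 84662852) encodes a small nuclear protein of the immediate early response and was among the steadiest of the 10. Its CPM were 39.0, 55.6, 48.1 and 61.7 in CTL1 to CTL4 and 33.0, 39.7, 36.6 and 43.4 in cKO1 to cKO4. Within each set of title numbers both cKO libraries lay below both CTL libraries, and the genotypes overlapped because CTL1 fell among the cKO values. With means of 51.1 ± 9.79 CPM in CTL and 38.2 ± 4.44 CPM in cKO MSPCs (SD, n = 4 per genotype), the log2 difference was -0.42 (SE 0.16).

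Atf3 (ENSMUSG00000026628.13, chromosome 1 from 191170296 to 191218039) was the only gene of the 10 whose genotypes did not overlap. It had 27, 87, 63 and 43 counts in CTL1 to CTL4 and 0, 0, 17 and 0 counts in cKO1 to cKO4. In CPM the CTL libraries lay between 0.873 and 2.67, and cKO3 had 0.523. The counts of 0 allow up to 0.0917 CPM in cKO1, 0.0853 in cKO2 and 0.0778 in cKO4, scaled as the limits for Egr2. Genes whose genotypes did not overlap made up 2.62% of the 14598 genes tested, in either direction, and Atf3 itself was not among those tested because of its counts of 0. Without the filter on counts its log2 difference was -3.64 (SE 1.49), whose size depends on how counts of 0 are treated. With cKO3 left out, the difference of mean log2 CPM moved from -3.92 to -4.74.

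Dusp1 (ENSMUSG00000024190.6, chromosome 17 from 26505590 to 26562128) had 3779 to 5627 counts per library. Its CPM were 122, 172, 162 and 116 in CTL1 to CTL4 and 122, 130, 124 and 112 in cKO1 to cKO4. The 4 cKO libraries lay close together, CTL1 and CTL4 lay among them and CTL2 and CTL3 above. The log2 difference was -0.23 (SE 0.14), and -0.13 without CTL2. Exons of Dusp1 and of Ergic1 on the other strand share 11 bases, and the strand setting of the counts is not given, so that reads there could come from either gene.

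Trib1 (ENSMUSG00000032501.8, chromosome 15 from 59648350 to 59657099) encodes a pseudokinase that guides C/EBPα to degradation. Its counts were 1452, 734, 1253 and 3058 in CTL1 to CTL4 and 695, 586, 240 and 1919 in cKO1 to cKO4. In CPM these were 47.0, 22.5, 38.9 and 81.8 in CTL and 21.3, 16.7, 7.38 and 49.9 in cKO. CTL4 and cKO4 were the highest libraries of their genotypes, and cKO4 exceeded 3 of the 4 CTL libraries. With means of 47.6 ± 25.0 CPM in CTL and 23.8 ± 18.3 CPM in cKO MSPCs (SD, n = 4 per genotype), the log2 difference was -0.996 (SE 0.53). It ranged from -0.60 without CTL4 to -1.65 without cKO4.

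By mean CPM, 8 of the 10 genes were lower in cKO and 2, Egr2 and Egr3, were higher. By mean log2 CPM, 50.4% of all genes tested were lower, and Egr2 and Atf3 are not among those tested. The median difference of mean log2 CPM over the 10 genes was -0.44, against -0.0024 over all genes tested. In both sets of title numbers, 7 of the 10 genes were lower and 2 higher in cKO, and Nr4a1 differed in sign between the sets, with 0.098 in the set from 26 to 32 and -1.82 in the set from 67 to 86. Genes past an adjusted p-value of 0.05 in edgeR's quasi-likelihood test between genotypes were 0% of the 14598 tested and 0 of the 8 rapid-response genes counted at least once in each library. At an unadjusted p-value under 0.05 there were 646 of all genes and 2 of the 8. DESeq2 called 23 genes by its Wald test and 47 by its likelihood ratio test with the title number set as a term, with 0 of the 8 in either, and limma-voom called 0 genes with 669 at an unadjusted p-value under 0.05. Because this contrast chose the genes, nothing is read from these counts.

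**Figure D3:**
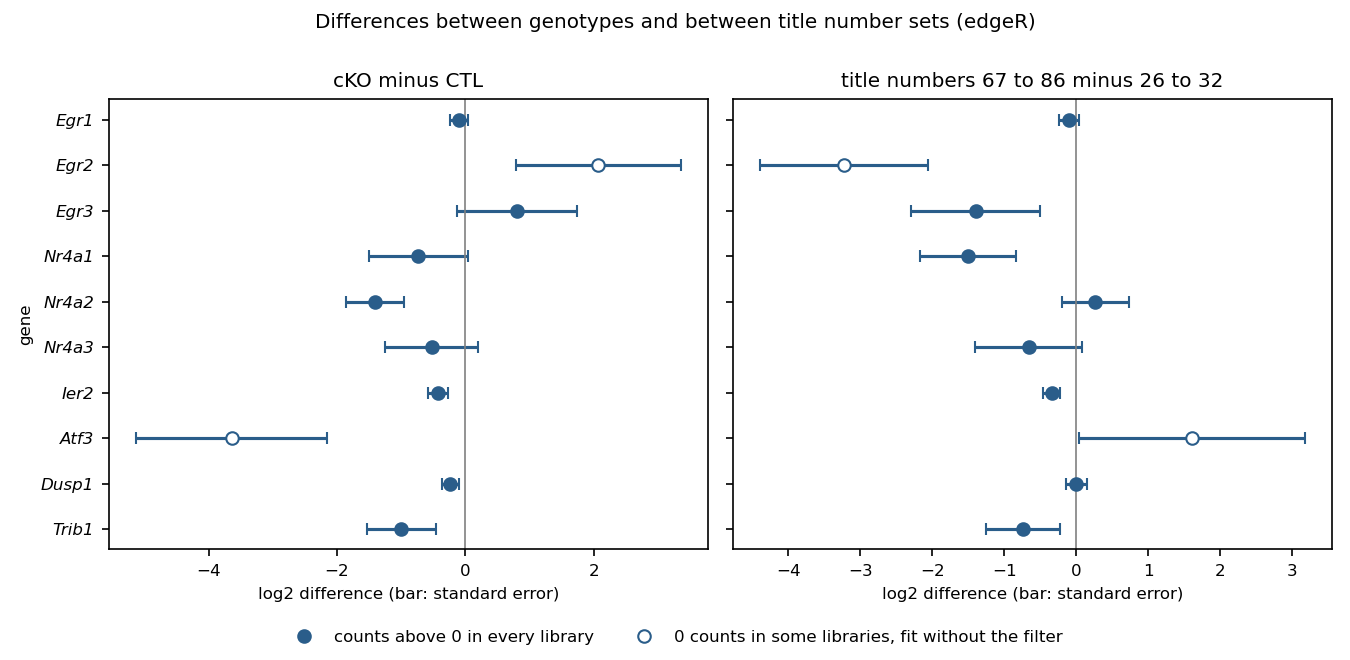
Log2 differences from edgeR with their standard errors (horizontal axes) for the 10 rapid-response genes, between genotypes on the left and between sets of title numbers on the right. Open symbols are Egr2 and Atf3, which had 0 counts in some libraries and were fitted without the filter on counts. Between genotypes Atf3 and Nr4a2 lie farthest below 0 and Egr2 farthest above it, and between the sets Egr2, Nr4a1 and Egr3 lie farthest below 0.

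The sets of title numbers were compared with genotype as a term. Genes past the threshold made up 0.0137% of the 14598 tested, and none of the 8 rapid-response genes tested was among them, with 1694 genes and 1 of the 8, Ier2, at an unadjusted p-value under 0.05. DESeq2's Wald test called 380 genes and limma-voom 2, with 0 of the 8 in either. By mean CPM, 9 of the 10 genes were lower in the set from 67 to 86, and 6 were so in both genotypes by mean log2 CPM. Genes whose sets did not overlap made up 6.87% of those tested, and 0 of the 10 rapid-response genes were of that kind. The median difference of mean log2 CPM was -0.33 over the 10 genes and -0.0090 over all genes tested.

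Ier2 had 50.1 ± 10.3 CPM in the set from 26 to 32 and 39.2 ± 6.47 CPM in the set from 67 to 86 (SD, n = 4 each). Its log2 difference of -0.34 (SE 0.11) did not pass in edgeR, with an adjusted p-value of 0.314. Nr4a1 had 14.4 ± 11.3 CPM in the lower set and 5.56 ± 3.36 CPM in the upper set, and its log2 difference of -1.51 (SE 0.67) did not pass either, with an adjusted p-value of 0.432 in edgeR. Without CTL2 the difference was -0.94. Egr3 followed with -1.40 (SE 0.89, adjusted p = 0.579 in edgeR), and was -0.57 without CTL2. The adjusted p-values of Trib1, Nr4a3, Egr1, Nr4a2 and Dusp1 in edgeR were 0.610, 0.775, 0.833, 0.876 and 0.999, with log2 differences between -0.74 for Trib1 and 0.27 for Nr4a2. The difference of Trib1 was -0.26 without cKO4, -1.11 without CTL2 and -0.0055 within CTL. Without the filter Egr2 had a log2 difference of -3.23 (SE 1.16) with an adjusted p-value of 0.564 in edgeR, and Atf3 one of 1.603 (SE 1.57) with 0.798. The direction of Atf3 was unsettled, since its mean CPM in the upper set was 87.8% of that in the lower set, and its difference of mean log2 CPM was 0.62 with all libraries and -0.20 without cKO2.

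Whether the genotype difference itself differed between the sets was fitted as an interaction, which rests on the same CPM and on the difference by which the genes were chosen. For it 0% of the 14598 genes had an adjusted p-value under 0.05 in edgeR, and 502 stood at an unadjusted p-value under 0.05. DESeq2's Wald test called 22 genes for it. None of the 8 rapid-response genes tested passed with either tool, and none had an unadjusted p-value under 0.05 in edgeR. Nr4a3 had the largest estimate of the 8, with a log2 value of 1.26 (SE 1.49). In the fit without the filter Egr2 had 6.67 (SE 1.69, unadjusted p = 0.00335) and Atf3 6.60 (SE 2.69, unadjusted p = 0.0366), both with an adjusted p-value of 0.9999 in edgeR. Both rest on pairs of libraries with 0 counts, so that their size depends on how counts of 0 are treated. On simulated counts, a log2 interaction of 1 was recovered for 0% and one of 2 for 48.7% of changed genes, so that interactions of these sizes can be missed with 2 libraries per genotype and set.

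Mice of the same genotype differed widely in several of these genes. The spread was measured as the SD of log2 CPM around the genotype means, whose median over all genes tested was 0.30. It was 1.75 for Egr2, 1.69 for Egr3 and 1.47 for Nr4a1, 0.97 for Trib1, and between 0.21 and 0.24 for Dusp1, Egr1 and Ier2. Since low counts spread more, each gene was set beside the tested genes whose mean CPM lay within a factor of 2 of its own. Trib1 stood at the 99.2th percentile of 5148 such genes, Egr2 at the 99.0th of 1602, Nr4a1 at the 98.9th of 3298 and Egr3 at the 98.8th of 1479, so that 4 of the 10 genes lay in the top 5%. Nr4a2 stood at the 49.9th percentile and Ier2 at the 56.6th. Egr2 and Atf3 had counts of 0 that the filter kept out of the comparison genes, which can raise their percentiles. These are descriptions, with no test, and the CPM that they rest on were known when the genes were chosen. Of the members of the top 5%, all but Egr2 had counts above 0 in every library, and Trib1 with 240 or more counts was far from the limit of detection.

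**Figure D4:**
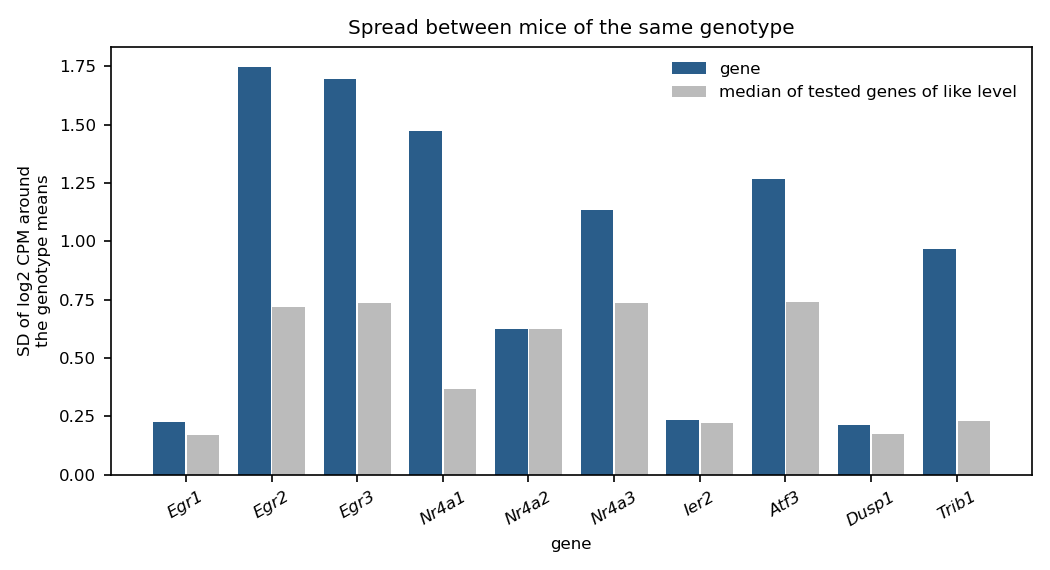
SD of log2 CPM around the genotype means (vertical axis, log2 units) for each rapid-response gene over 8 libraries, beside the median of tested genes with a mean CPM within a factor of 2. Egr2, Egr3, Nr4a1 and Trib1 stand far above genes of like level, and Nr4a2 and Ier2 stand close to them.

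Across mice the genes varied in mixed directions. With genotype means removed, the median Pearson's r of log2 CPM over the 45 pairs was 0.078 (n = 8 libraries, which share their depth and preparation between genes), with 5 pairs above 0.5 and 6 below -0.5. This median was 0.20 without cKO1, -0.017 without CTL1 and -0.034 with the means of the title number sets removed as well. The highest was 0.86 between Egr2 and Ier2, and Nr4a1 and Nr4a3 had 0.63. The lowest was -0.78 between Egr1 and Nr4a3, and Egr1 and Nr4a1 had -0.56. Nr4a2 had -0.50 with Nr4a1 and -0.28 with Nr4a3, so that 2 of the 3 NR4A pairs were below 0. With the genotype means kept in, Egr2 and Ier2 had -0.063 and Egr1 and Nr4a3 had -0.67. Within both genotypes, Egr2 and Ier2 had lower mean log2 CPM in the set with the higher title numbers. The differences were -3.99 in CTL and -1.30 in cKO for Egr2, and -0.43 and -0.26 for Ier2. Egr2 also had 0 counts in CTL1 and CTL3. The part of this split and of these counts in the r of 0.86 was not tested. Among 9402 other genes that reached 10 CPM on average, those most like the mean of the 10 genes were Vdr, which encodes the vitamin D receptor, with r = 0.98, then Slc38a6 with 0.97 and Tfe3, Pabpn1 and Pmepa1 with 0.96 each. These are the highest of many correlations over 8 libraries. Each of these genes was also lower in the set with the higher title numbers. Their log2 differences ran from -1.02 for Vdr to -0.28 for Pabpn1. None passed in edgeR, where the lowest adjusted p-value was 0.189, for Vdr. The part of this split in their r was not tested. The SD around the genotype means was 1.75 for Egr2 and 0.21 for Dusp1, and the weight of each member in the mean was not tested.

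**Figure D5:**
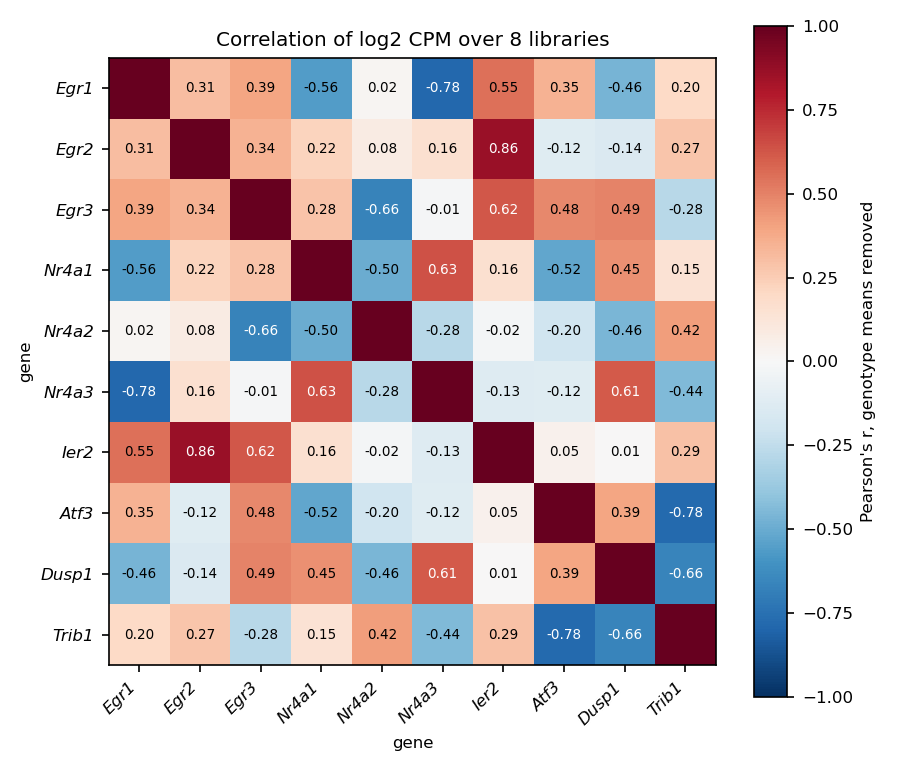
Pearson's r of log2 CPM between each pair of rapid-response genes over 8 libraries after the genotype means were removed (color scale from -1 to 1, value in each cell). Positive and negative pairs are mixed, from -0.78 for Egr1 with Nr4a3 to 0.86 for Egr2 with Ier2. With the genotype means kept in, Egr2 with Ier2 had -0.063.

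The AP-1 genes Fos, Fosb, Jun and Junb encode the other main class of immediate early transcription factors. Fos had 288 ± 67.6 CPM in CTL and 153 ± 55.5 CPM in cKO and Fosb 14.3 ± 3.90 and 5.05 ± 1.52 (SD, n = 4 each), without overlap of the genotypes in either. Jun and Junb overlapped, with log2 differences of -0.51 (SE 0.20) and -0.38 (SE 0.18). Of the 7 AP-1 genes 6 were tested, all 6 were below 0 with a median of -0.44 and 0 passed. With genotype means removed, the mean of the AP-1 genes and that of the 10 genes had an r of -0.25 over 8 libraries.

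Relatives and partners of the 10 genes were taken from lists. Of 15 family relatives 11 were tested, with 3 log2 differences above 0, 8 below 0, a median of -0.054 and 0 past the threshold between genotypes. Egr4 had 0 counts in all libraries. Nab1 and Nab2, the corepressors of EGR factors, had 93.5 to 123 and 23.6 to 36.2 CPM in CTL and 92.4 to 117 and 23.3 to 36.3 CPM in cKO, and so overlapped almost fully. Ier3 and Ier5 had log2 differences of -0.27 (SE 0.20) and -0.32 (SE 0.23), and Dusp6, the phosphatase of ERK, one of -0.16 (SE 0.20). Trib2 had -0.30 (SE 0.40), and Trib3 was at 0 to 1.41 CPM in CTL and 0.542 to 3.00 CPM in cKO and was not tested.

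Among 40 other rapid-response genes 36 were tested, with 12 above 0, 24 below 0, a median of -0.10 and 0 past the threshold. Zfp36, whose product destabilizes mRNAs with AU-rich elements, had 206 ± 18.2 CPM in CTL and 160 ± 19.1 CPM in cKO MSPCs (SD over 4 mice each), a log2 difference of -0.37 (SE 0.11) that did not pass. Csrnp1 had -0.37 (SE 0.30), Klf6 -0.094 (SE 0.14), Sik1 0.068 (SE 0.27), Btg2, an antiproliferative gene, 0.10 (SE 0.15), and Mcl1, a survival gene of the BCL2 family, 0.14 (SE 0.11). Klf4 had 88 counts at most with 0 in some libraries and was not tested, and Arc, Npas4 and Ptgs2 had 0 counts in all 8 libraries. Between the sets of title numbers 10 of the 36 were above 0 and 26 below 0, with a median of -0.21 and 0 past the threshold.

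The 26 genes of the signaling chain that acts on CArG boxes and CREs were all tested, with 9 log2 differences above 0, 17 below 0, a median of -0.024 and 0 past the threshold between genotypes. Srf had 0.0036 (SE 0.24), Elk1 -0.10 (SE 0.19), Creb1 -0.20 (SE 0.42) and Crem -0.19 (SE 0.37). These are transcript levels, and the activity of these factors is set largely by phosphorylation, which was not measured. The 10 heat shock genes, which respond to protein damage, summed to 745 to 1035 CPM in CTL and 582 to 900 CPM in cKO. All 9 of them tested were below 0 between genotypes, with a median of -0.22, and all 9 were above 0 in the set from 67 to 86 against that from 26 to 32, with a median of 0.27, and 0 passed in either. Hspa1b had a log2 difference of -0.11 (SE 0.51) between genotypes, and Hspa1a had 0 to 65 counts and was not tested. The part of this stress response in the values of the 10 genes was not tested.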

How the data were processed

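RNA of sorted MSPCs from 4 CTL and 4 cKO mice was sequenced in 8 libraries. Per the methods, the authors trimmed the paired reads, aligned them to GRCm38 with HISAT2 and counted them per gene with HTSeq, and they deposited raw counts without normalization. Tool versions and the strand setting are not given in the sources used here. Among deposited counts from 4 to 23, 55.1% were odd, and which counting step gives this was not tested. Of 52636 genes, 52403 were matched to a symbol, and gene positions came from GENCODE M21 (GRCm38), another release than the methods name.

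The 14598 genes counted at least once in each library, as in the study, were tested in edgeR 4.0.16 (TMM, glmQLFit and glmQLFTest, Benjamini-Hochberg adjustment over all genes tested, threshold 0.05) in R 4.3.3. Genotype was fitted without covariates, since the batch that the study corrected for is not named. The sets of title numbers were fitted with genotype as a term, and the interaction with both. Egr2 and Atf3 failed the filter and were taken from a fit without it. Log2 CPM used a prior count of 2. Alternatives were DESeq2 1.42.0, limma-voom (limma 3.58.1), other scalings and filters, a replicate block, the title number set as a term, and each library left out. The p-values set each difference against the spread between single mice.

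The 10 genes and all lists were chosen with earlier results of these data known. Named genes were all 10 members and 25 genes fixed from the lists whatever their values, and the 5 genes most like the members' mean. On simulated counts, edgeR found 46.4% of the changed genes at a log2 genotype difference of 1 (12 false calls) and 88.4% at one of 2 (4 false calls). For the sets of title numbers these shares were 51.8% and 86.1%.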

Additional observations from a re-analysis of the deposited data

Results flagged for a closer look

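Dixon's ratio, the gap of the outermost library to its nearest neighbor divided by the range of the 4 libraries of a genotype, was computed for the CPM of all 10 genes in both genotypes. Of 20 groups 3 exceeded the 95% critical value. The genes were chosen with these CPM known, so that nothing is read from this number. CTL2 stood above the other CTL libraries for Nr4a1 with a ratio of 0.834 and for Nr4a3 with 0.889. In Atf3, cKO3 with 17 counts stood above the other 3 cKO libraries, all at 0, with a ratio of 1. Any count above 0 in cKO3 would give that ratio. CTL2 was not the highest CTL library for Egr1, Egr2, Nr4a2, Ier2 or Trib1, and it was for Egr3, Atf3 and Dusp1.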

How the results depend on the processing

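Between genotypes 0 genes passed in edgeR, against 23 with DESeq2's Wald test, 47 with its likelihood ratio test and the title number set, 1 with filterByExpr and 1 without a filter, and 0 of the 8 rapid-response genes tested passed under any alternative run. Egr2 and Atf3 were tested only with filterByExpr and without a filter, and passed in neither. Between the sets of title numbers 2 genes passed, against 380 with DESeq2's Wald test, 1 with RLE scaling, 0 without genotype as a term, 4 without a filter and 0 to 4 with 1 library left out. For the interaction 0 passed, against 22 with DESeq2's Wald test. The cause of these changes was not tested, and none of the rapid-response genes held in each fit was called.

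Between the sets, Dusp1 (0.00039) changed sign to -0.0013 without genotype as a term, -0.0024 without a filter, -0.019 with total count scaling, -0.00022 with upper quartile scaling, -0.0073 within CTL, and between -0.098 and 0.13 with 1 library left out (-0.078 without CTL3, -0.098 without CTL4, -0.0069 without cKO3, -0.047 without cKO4). With 1 library left out, Nr4a3 ranged from -1.27 to 0.16 (without CTL2), and it was 0.16 within cKO, and Nr4a2 ranged from -0.096 (without cKO1) to 0.74, and was -0.16 within CTL. The interaction of Egr3 was -0.37 with limma-voom. With the replicate number as a block, 0 genes passed between genotypes and 812 had an unadjusted p-value under 0.05. Deviations of same-numbered libraries correlated by 0.057 to 0.18, so that the numbers were not taken to pair the mice. The block is nested in the title number sets, and no paired analysis was possible for them. The number of genes in the top 5% of spread was 3 or 4 under every alternative run. Depth limited Egr2, Egr3, Nr4a3 and Atf3, each with 108 counts or fewer in every library.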
